A study of Mus musculus with 74 samples.

Results

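Zfp759 is one of the mouse zinc finger proteins mapped by chromatin immunoprecipitation and sequencing (ChIP-seq) in this series, and its 816 peaks are described here. They are the rows of the peak table that carry the name Zfp759, out of 53011 peaks of 67 proteins in all. The protein was made from a transgene with an epitope tag at its C-terminus (label C-3XHA) in pools of resistant F9 EC cells, a mouse embryonal carcinoma line, and was precipitated with an antibody against HA. Zfp759 had 1 sample, called against the F9 input and an HA control, so no value of its own has a replicate error. The comparison samples were the 29 other proteins expressed in F9 EC cells and called against the same controls, 22 with the tag C-3XHA and 7 with N-3XHA, also 1 sample each. The 30 samples together held 12683 peaks. All 816 windows had been set to 200 bp around the summit, and coordinates are on the mouse build mm9.

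Zfp759 belongs to the Krüppel-associated box zinc finger proteins. In this family an array of zinc fingers reads DNA, and the KRAB domain recruits the co-repressor KAP1 (gene Trim28), which brings the histone methyltransferase Setdb1 and other silencing factors to the site. Many family members bind transposable elements and other repeats, and the family has expanded by gene duplication along with them. F9 cells, like embryonic stem cells, express much of this silencing machinery. The tagged protein came from a transgene, so its level need not be that of the endogenous protein.

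The sequences under the strongest peaks resembled one another, so they are shown first. When the 816 windows were aligned with each other, 228 had a partner over at least 100 bp, and the 3 largest groups held 78, 63 and 41 windows. The family of 63 contained the peak with the most tags (sequenced fragments counted in the called region), an intronic site in Efhb. The next lines give windows of that family, in lower case with the 8-base word GAGCCACA in capitals where it occurs. The word was picked by a count described further on. The first 3 windows carry it 1 or 2 times. The Mms22l window lies between genes, had the most tags of those without it, and carries no exact copy.
Efhb, chr17:53594699-53594898, plus strand: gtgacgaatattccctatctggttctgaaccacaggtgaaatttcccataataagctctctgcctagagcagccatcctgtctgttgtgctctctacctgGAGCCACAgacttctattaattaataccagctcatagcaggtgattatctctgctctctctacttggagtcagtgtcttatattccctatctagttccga
Slc12a8, chr16:33508793-33508992, minus strand: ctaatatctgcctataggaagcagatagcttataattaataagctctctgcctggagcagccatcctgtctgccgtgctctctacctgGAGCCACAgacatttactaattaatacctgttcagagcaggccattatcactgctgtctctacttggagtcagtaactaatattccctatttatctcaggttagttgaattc
Wdfy3, chr5:102266746-102266945, minus strand: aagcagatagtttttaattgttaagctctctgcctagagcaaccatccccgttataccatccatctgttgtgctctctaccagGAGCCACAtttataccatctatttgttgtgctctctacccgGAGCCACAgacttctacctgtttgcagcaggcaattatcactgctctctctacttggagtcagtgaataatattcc
Mms22l, chr4:24418480-24418679, plus strand: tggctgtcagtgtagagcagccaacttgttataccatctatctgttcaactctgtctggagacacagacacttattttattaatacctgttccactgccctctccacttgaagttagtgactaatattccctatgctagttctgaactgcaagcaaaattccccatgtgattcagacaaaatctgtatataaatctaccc
The windows in Efhb and near Slc12a8 had 432 and 310 tags, and the window in Wdfy3 had 307. The Mms22l window had 179 tags and a fold enrichment of 29.6 over control. In all windows of the family of 63 that held the word more than once, the 25 neighbouring pairs had both copies on the same strand, with a median spacing of 60 bp and a range of 41 to 122 bp.

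The family of 41 also contained very strong peaks. Its commonest 12 bases, which 12 of the 41 windows carried, are in capitals here. The Srp54b and Fam43a windows are shown because they had the most tags among the windows that carried these bases. Both ranked among the 10 peaks with the most tags. The member near 1700047I17Rik2 had more tags (428) and is not shown.
Srp54b, chr12:56222666-56222865, plus strand: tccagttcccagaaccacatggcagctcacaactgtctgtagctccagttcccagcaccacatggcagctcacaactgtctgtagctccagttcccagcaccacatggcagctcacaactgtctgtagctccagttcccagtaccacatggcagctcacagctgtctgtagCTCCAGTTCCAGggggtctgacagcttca
Fam43a, chr16:30650256-30650455, minus strand: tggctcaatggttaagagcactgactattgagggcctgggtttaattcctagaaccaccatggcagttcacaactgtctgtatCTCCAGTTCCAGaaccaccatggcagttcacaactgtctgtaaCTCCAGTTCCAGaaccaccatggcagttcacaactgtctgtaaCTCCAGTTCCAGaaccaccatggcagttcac
Both windows hold a short unit repeated head to tail. The Srp54b window is in an intron, with 427 tags and a fold of 86.5, and the Fam43a window lies 50547 bp from the nearest annotated start, with 294 tags and a fold of 58.7.

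The word also occurred outside the family of 63, in 20 windows. The 3 with the most tags follow, again with the word in capitals. They were picked with their values in view. The Vkorc1l1 window belongs to the family of 41, while the Slc5a6 and Itga9 windows aligned to no other Zfp759 window.
Vkorc1l1, chr5:130451489-130451688, plus strand: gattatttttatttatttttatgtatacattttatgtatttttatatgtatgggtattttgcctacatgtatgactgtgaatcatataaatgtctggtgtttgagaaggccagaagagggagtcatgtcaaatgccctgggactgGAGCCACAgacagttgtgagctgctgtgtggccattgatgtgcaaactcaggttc
Slc5a6, chr5:31324207-31324406, minus strand: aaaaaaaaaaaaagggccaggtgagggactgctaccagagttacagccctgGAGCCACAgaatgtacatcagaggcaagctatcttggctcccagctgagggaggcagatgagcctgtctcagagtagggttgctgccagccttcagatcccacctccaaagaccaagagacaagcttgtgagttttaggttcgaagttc
Itga9, chr9:118575576-118575775, minus strand: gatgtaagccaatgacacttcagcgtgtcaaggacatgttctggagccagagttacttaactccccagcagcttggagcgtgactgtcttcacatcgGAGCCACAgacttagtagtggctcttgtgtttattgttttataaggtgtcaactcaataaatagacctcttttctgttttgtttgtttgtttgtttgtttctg
Their tags were 272, 202 and 182, and their folds 75.8, 49.7 and 41.2.

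For contrast, the next line shows a window that was called in 8 of the 29 other F9 samples with the HA control, the highest number for any Zfp759 peak. It lies near H2afb1, does not hold the word, and had 97 tags and a fold of 24.7.
H2afb1, chr2:17910789-17910988, plus strand: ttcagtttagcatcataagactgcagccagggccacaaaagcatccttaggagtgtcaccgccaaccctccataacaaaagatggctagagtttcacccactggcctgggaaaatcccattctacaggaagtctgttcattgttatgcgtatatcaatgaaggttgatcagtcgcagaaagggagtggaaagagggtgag

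The peaks fell into a few strong sites and a long series of weak ones. Tags ranged from 23 to 432 with a median of 42, fold enrichment from 20.0 to 91.3 with a median of 22.7, and called width from 167 to 1208 bp with a median of 296.5 bp. A fold under 25 was recorded for 603 peaks (73.9%), close to the enrichment limit of 20 that was set for this sample, and a fold over 40 for 34 peaks (4.17%). The 82 peaks with the most tags (77 to 432) held 30.5% of the 45098 tags in all peaks. They had a median fold of 34.2 and a median called width of 573 bp, against 22.0 and 292 bp in the other 734 peaks. Called width and tags are read from the same pileup and are not independent measures. The depth of the library is not given in the sources used here, so tags are compared only within this sample.

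**Figure D1:**
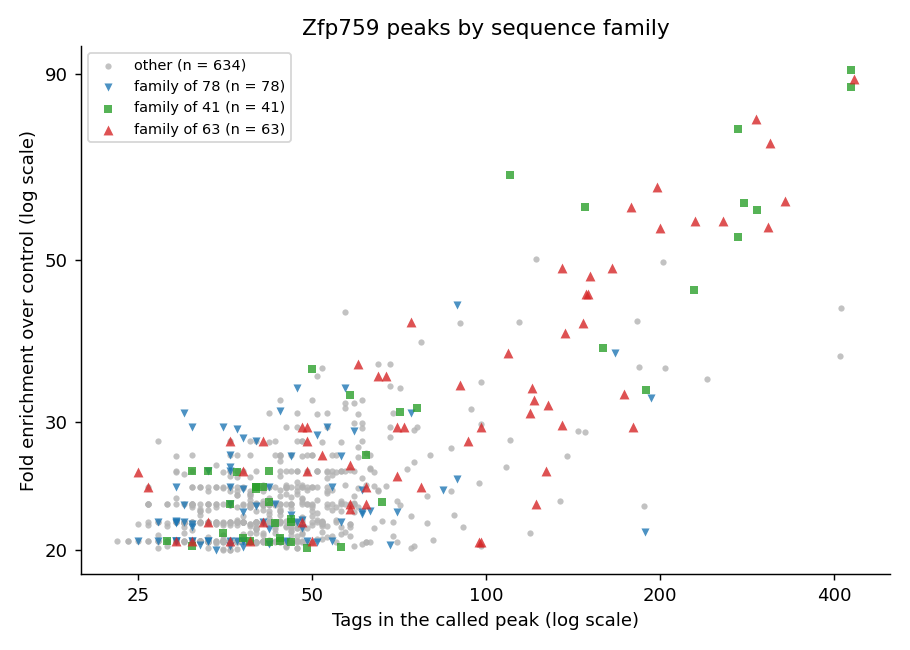
Each point is 1 of the 816 Zfp759 peaks, placed by its tags and its fold enrichment over control, both on log scales, with the 3 largest sequence families marked. Members of the families of 63 and of 41 make up most points above a fold of 50, and the family of 78 lies mostly in the lower left, with a median of 39 tags.

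The 10 peaks with the highest fold all came from the families of 63 and of 41. The highest was a site 2793 bp from the start of 1700047I17Rik2 on chromosome 12 (chr12:56297686-56297885), with a fold of 91.3 and 428 tags. The Efhb intron followed with 88.7 and the Srp54b intron with 86.5. Further sites of the family of 63 lay 72587 bp from Gm2810 (fold 78.2, 293 tags), near Slc12a8 (fold 72.5), 11823 bp from the start of Lpl, which encodes lipoprotein lipase (fold 63, 197 tags), and in an intron of Wipi2, an autophagy gene (fold 60.4, 328 tags). Sites of the family of 41 lay in introns of Vkorc1l1, a vitamin K epoxide reductase gene (fold 75.8), of Srp54c, which encodes a subunit of the signal recognition particle (fold 65.6, 110 tags), and of Anp32e, a chaperone gene for the histone variant H2A.Z (fold 59.9, 279 tags). None of these 10 windows was called for any other protein of the series.

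Ranking by tags added 4 sites that fold did not place in the first 10. An untranslated part of Tex2 had 410 tags at a fold of 43.0, and a site 5878 bp from Gm12800 had 409 tags at a fold of 36.9 and the greatest called width of all, 1208 bp. The Wdfy3 intron and the Fam43a site, shown above, were the others. The Tex2 and Gm12800 windows aligned to no other Zfp759 window and held no copy of the word. Among the 82 peaks with the most tags, 33 belonged to the family of 63, 11 to the family of 41 and 6 to the family of 78, and 28 aligned to no other window.

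The family of 63 was the strongest group. Its members had a median of 90 tags (25 to 432), a median fold of 29.6 (20.5 to 88.7) and a median called width of 467 bp. They were spread over 18 chromosomes, with 45 windows between genes, 18 in introns and 1 within 1 kb of an annotated transcript start. The median GC content of the windows was 38.0%, against 47.5% over all Zfp759 peaks and 41.5% over 25584 windows taken at even steps along the genome. Copy number, taken as the median number of exact genomic matches of the 24-base stretches in a window, was 1 in 37 of the 63 (58.7%) and reached 10 or more in 8. None of the 63 windows was called in any of the 29 other samples.

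To see how particular that was to this sample, the 10 members with the most tags were aligned to all other windows. An alignment of 100 bp or more was found for 60 Zfp759 windows (7.35%, Wilson 95% interval 5.76 to 9.35), for 0 of the 11867 windows of the 29 others (which allows a share of up to 0.0324%) and for 1 of the 25584 windows along the genome (0.00391%). These intervals, and all others given here, cover counting error only. The queries were Zfp759 windows, so the Zfp759 share is a description and the values of the other samples are the measurement.

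The family of 41 was weaker in the middle and strong at its top. Its median was 46 tags (28 to 428) with a median fold of 24.4. Introns held 25 windows and intergenic sequence 16, and 13 of the 41 windows (31.7%, interval 19.6 to 47.0) were also called in another of the 29 samples. With 10 of its members as queries, 30 Zfp759 windows aligned over 100 bp or more (3.68%), against 76 of the 11867 windows of the others (0.640%, interval 0.512 to 0.801) and 62 of the genome windows (0.242%). The highest share among single others was 2 of 92 windows in Zfp874b, and 14 of the 29 had none.

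The family of 78 was rich in simple sequence. Of its windows, 41 held an unbroken run of 20 or more purines or pyrimidines, its commonest 12 bases were AGGAGGAGGAGG, present in 14 members, and its median was 39 tags with a fold of 22.5. The windows called in another sample numbered 41 of the 78 (52.6%, interval 41.6 to 63.3), and the 42.5% over all Zfp759 peaks lies inside that interval. When the alignment masked low-complexity sequence, an alternative chosen after seeing the data, the families of 63 and of 41 came out with the same members, and 18 windows of the family of 78 still had a partner.

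Repeated units within a window were frequent at the strong sites. Among the 82 peaks with the most tags, 37 windows (45.1%, interval 34.8 to 55.9) held some 12-base stretch at least 2 times, at 20 bp or more from each other. The share was 8.04% (59 of 734) in the other peaks, 3.43% in windows 1 kb to either side of the Zfp759 peaks and 3.25% along the genome. Over all 816 peaks it was 11.8%, and 7 of the 29 other samples had a higher share, up to 28.98% in Zfp738.

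The word GAGCCACA was the 8-base sequence, counted on both strands, with the greatest excess near Zfp759 summits on the odd-numbered chromosomes and X. Only low-copy windows, with a copy number under 10, were used. Within 50 bp of the summit it was present in 33 of 434 windows there (7.60%) and in 5 of 868 flanking windows (0.576%). On the even-numbered chromosomes, which took no part in the choice, 23 of 335 windows held it (6.87%, interval 4.62 to 10.1), against 6 of 670 flanks (0.896%, interval 0.411 to 1.94). Along the genome 0.469% of windows did. Choosing the word on the even chromosomes gave GCCACAGA, which overlaps the first in 6 bases, with 7.14% of the windows on the odd chromosomes and X and 0.806% of the flanks. A word of 10 bases, CTGTGGCTCC, which contains the first word on its opposite strand, was in 18 of the 335 even-chromosome windows and in 0 of the 670 flanks. A word of 6 bases, CTCCAG, was in 18.5% of these windows and in 9.40% of the flanks, and for it Zfp759 was no longer the most extreme of the 30 samples (exact permutation p = 0.267).

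In the same low-copy windows on the even chromosomes, 1.17% of the windows of the 30 samples together held GAGCCACA near the summit. The 29 others held it in 37 of 4790 (0.772%), of which 4 windows were also Zfp759 peaks. None was found in 17 of the 29 samples. The highest of them were Zfp872, with 3.85% (3 of 78), and Gm13145, with 2.08% (4 of 192). Zfp759 exceeded all 29, and its share differed from their mean of 0.565% by 6.30 percentage points (exact permutation over the 30 samples, two-sided p = 0.0333, the smallest the design allows, and 0.3 after Benjamini-Hochberg adjustment over 9 measures). The word was chosen on Zfp759 peaks and not for the others, so the 30 samples are not on an equal footing in this test, and its p gives no independent support. Most of the excess lay in the family of 63: without it the share on the even chromosomes was 1.62% (5 of 309, interval 0.693 to 3.73), and the exact permutation p was 0.133. That family was left out after its values had been seen.

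The copies of the word lay close to the summits. The word was chosen for its excess within 50 bp of them, and the peaks used for that choice are included here. Part of this closeness is therefore built in. Of 103 copies in the 200 bp windows, 77 were within 50 bp of the summit, and the distance from the summit to the nearest copy had a median of 14 bp over the 75 windows that held one. Inside the family of 63 the median was 13 bp over 55 windows, and outside it 24.5 bp over 20. Windows with 1 copy had a median of 62 tags (48 windows), windows with 2 or more copies 98 tags (27 windows) and windows without the word 41 tags (741 windows). Of these windows, 30 of the 48 and 25 of the 27 belonged to the family of 63. Within that family the medians were 65 tags without the word (8 windows), 82 with 1 copy (30 windows) and 98 with 2 or more (25 windows), with ranges that overlapped widely. Outside it they were 41, 54.5 and 102, the last over 2 windows.

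**Figure D2:**
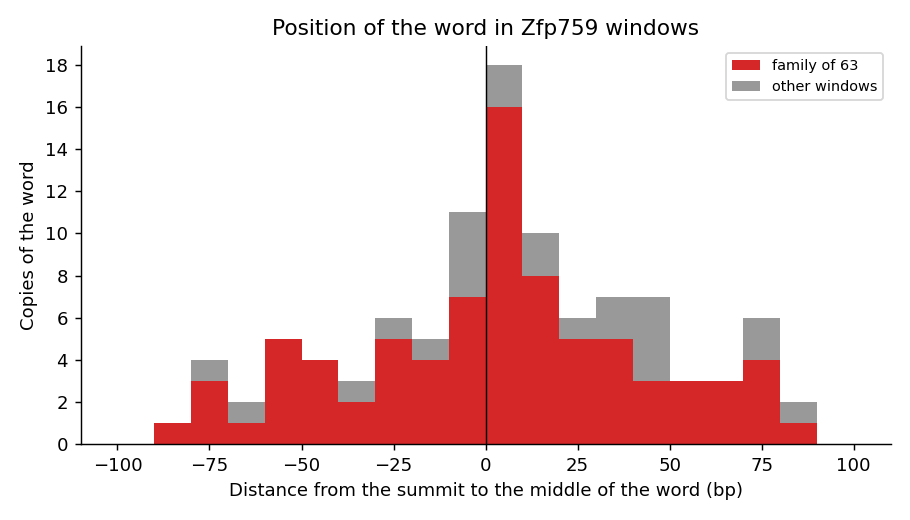
Histogram of the 103 copies of the 8-base word in Zfp759 windows by distance from the summit in bp, in steps of 10 bp, with the family of 63 in red and other windows in grey. The copies concentrate around the summit at 0, with 77 within 50 bp of it. The first 50 bp on either side were the range in which the word was chosen.

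The bases next to the word were also alike between copies. Aligned around the word, the 57 copies on the odd chromosomes and X with enough sequence on both sides had the same base in at least 70% of copies at each position, taken singly, of the 15-base stretch CCTGGAGCCACAGAC. The assembled chromosomes of mm9 hold 213 exact copies of it, and 51 of these 213 lay inside a Zfp759 window (23.9%, interval 18.7 to 30.1). On the even chromosomes, which were not used to derive it, 26 of 115 copies did (22.6%, interval 15.9 to 31.1). With 1 mismatch the share there was 2.72% (11 of 405), and with 2 mismatches 0.581% (28 of 4822). The stretch was derived from copies of the word, and 55 of the 75 Zfp759 windows with the word belonged to the family of 63. Members of that family also lie on the even chromosomes, so these are not independent of it. Whether the fall with mismatches goes with the changed bases or with membership of the family was not tested. No copy with 0 or 1 mismatch lay inside a window of any of the 29 other samples, and 14 of the 10492 copies with 2 mismatches did. For the 8-base word alone, 103 of 128353 genomic copies were inside a Zfp759 window (0.0802%).

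**Figure D3:**
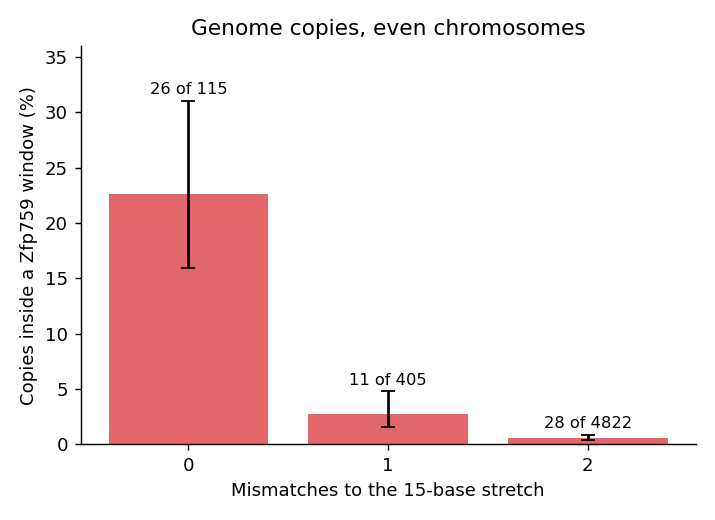
Share of genomic copies of the 15-base stretch on the even chromosomes that lay inside a Zfp759 window, in percent, by the number of mismatches, with Wilson 95% intervals as error bars and counts above them. The share was 22.6% for exact copies, 2.72% with 1 mismatch and 0.581% with 2. Copies were counted, not windows, so a window with several copies entered more than once. Whether this fall goes with the changed bases or with membership of the family of 63 was not tested.

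Copies within 500 bp of each other were then joined, giving 205 loci, of which 53 had a Zfp759 summit within 500 bp (25.9%, interval 20.3 to 32.3). The peaks at these loci had 26 to 432 tags, with a median of 90. A summit was near 47 of 197 loci with a single copy (23.9%) and near 6 of 8 loci with 2 or more (75%, interval 40.9 to 92.9). On the even chromosomes the counts were 24 of 107 (interval 15.6 to 31.2) and 3 of 4 (interval 30.1 to 95.4), with overlapping intervals. Where the 61 bases around the copy were unique in the genome, 48 of 179 loci had a summit (26.8%), and where they recurred, 5 of 26 did (19.2%, interval 8.51 to 37.9). The authors placed a read at its best match, and at random only among equally good matches.

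Relatives of the family of 63 were then located in the genome. With the Efhb window as the query, 529 loci aligned over at least 100 bp, and 29 of them contained a Zfp759 summit (5.48%), while 0 contained a summit of any of the 29 other samples. The family has 63 windows, so a search with 1 query did not reach all of its members. Summits lay in 2 of 258 loci without the word (0.775%, interval 0.213 to 2.78), in 21 of 246 with 1 copy (8.54%, interval 5.65 to 12.7) and in 6 of 25 with 2 or more (24%, interval 11.5 to 43.4). Restricted to the even chromosomes, the counts were 0 of 66, 11 of 126 and 2 of 13, and the interval of the last reached from 4.33 to 42.2%. The loci with more copies were also longer, with medians of 120, 123 and 220 bp. With the Wipi2 window as the query, an alternative chosen after seeing the data, 144 loci aligned, and summits lay in 0 of 69 without the word, 12 of 62 with 1 copy (19.4%, interval 11.4 to 30.9) and 2 of 13 with 2 or more (15.4%, interval 4.33 to 42.2). The order between 1 copy and 2 or more thus depended on the query, with intervals that overlapped for both.

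A large part of the weaker peaks was not particular to Zfp759. Windows that overlapped a window of another of the 30 samples by at least 25% numbered 347 of 816 (42.5%, interval 39.2 to 45.9), against 24.3% of the 12683 windows of the 30 samples together. The 29 others ranged from 0.629% in AW146154 to 65.2% in Zfp953, and Zfp759 did not differ from their mean of 26.1% beyond their spread (exact permutation p = 0.567, adjusted p = 1). This share rested on the thresholds of the other samples. Of these, 18 had been called at the limits used for Zfp759 (p under 1e-10 and a fold over 20), and 11 at looser limits. With those limits applied to all 30 samples, 184 of 815 Zfp759 windows were shared (22.6%, interval 19.8 to 25.6), against 14.1% of the 5830 windows in all. The mean over the 28 others that kept peaks was then 21.4%, so Zfp759 lay only 1.15 percentage points above it.

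Sharing was least frequent at the top. Among the peaks with the most tags 9 of 82 windows were shared (10.98%, interval 5.88 to 19.6), and among the other peaks 338 of 734 (46.0%, interval 42.5 to 49.7). At the common limits the counts were 5 of 82 (6.10%) and 179 of 733 (24.4%). Of the 82 windows, 33 belonged to the family of 63, and at the limits as called 0 of these were shared. Outside that family 9 of 49 were shared (18.4%, interval 9.98 to 31.4). These 9 shared windows included the Gm12800 site, called in 1 other sample, and the H2afb1 site, called in 8. Sharing did not change steadily with tags. In 10 groups ranked by tags it was 46.3% to 54.3% in groups 2 to 8. It was lower in groups 9 and 10, which had the fewest tags (28.05% and 32.1%). Of the 75 windows with the word, 8 were shared, all outside the family of 63. Outside that family, 8 of 20 windows with the word were shared (40%, interval 21.9 to 61.3). Without the word, 339 of 733 were (46.2%, interval 42.7 to 49.9).

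**Figure D4:**
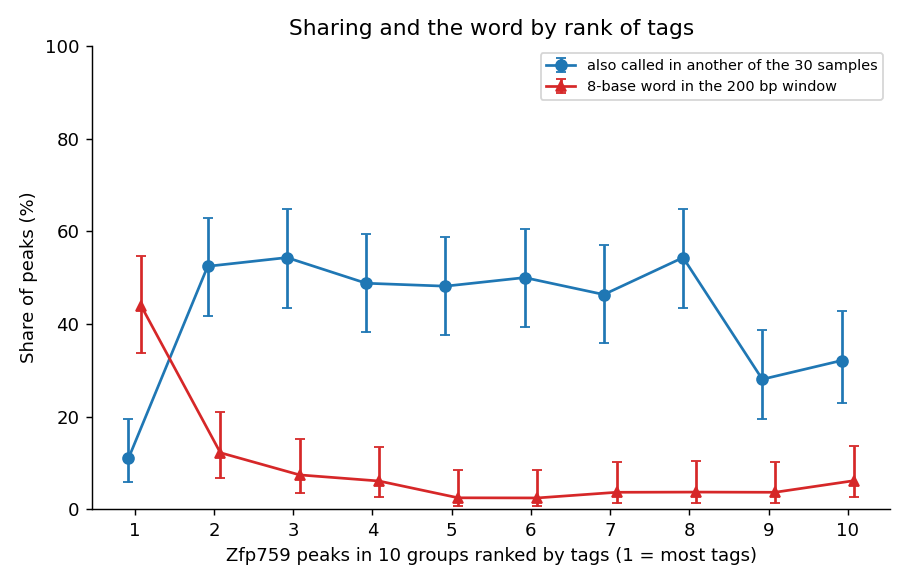
Zfp759 peaks ranked by tags and divided into 10 groups of 81 or 82 peaks (x axis, 1 has the most tags), with the share in percent that was also called in another of the 30 samples (blue circles) and the share whose window held the 8-base word (red triangles). Bars are Wilson 95% intervals; in the first group 10.98% were shared and 43.9% held the word, and in the second 52.4% and 12.2%.

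The proteins that shared the most loci with Zfp759 were Gm13235 with 134, Gm13145 with 122, Gm13251 with 114, Zfp457 with 96, Zfp709 with 78 and Zfp872 with 44. Gm13251 carried the tag N-3XFLAG and was called against a FLAG control, so it shared neither antibody nor control library with Zfp759, apart from the F9 input. The 134 windows were 16.4% of the Zfp759 peaks and 7.48% of the 1791 Gm13235 peaks. For Gm13145 the shares were 14.95% and 27.5% of 444 peaks, for Gm13251 14.0% and 3.45% of 3300, and for Zfp872 5.39% and 23.4% of 188.

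For these 6 proteins the shared loci had modest folds on both sides, with medians from 12.5 to 25.6 in the other protein. For proteins with fewer shared loci they could be higher, as in Zfp712 (30.5 over 7 loci) and Gm13154 (40.7 over 5). The Zfp759 peaks shared with Gm13145 had a median fold of 23.1 and 45 tags, and the Gm13145 peaks at the same loci 24.1 and 56. With Gm13235 the medians were 22.6 in Zfp759 and 14.3 in Gm13235, which had been called at a looser fold limit. Summits of the shared loci lay a median of 18 bp apart for Gm13145, 22 bp for Gm13235 and 26 bp for Gm13251. At the common limits, 4 loci were shared with Gm13235, 1 with Zfp457 and 1 with Zfp709, while all 122 with Gm13145 and all 114 with Gm13251 remained. Of all 816 windows, 420 (51.5%) were called in no other protein of the series, and 49 only in samples outside the 30.

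Among the loci called in the most samples, beside the H2afb1 site, the Slit1 intron (fold 43.4, 89 tags), a site 64670 bp from Gm1631 (fold 20.3) and an Lrrc8d intron (fold 25.9) were each called in 7 others. The Slit1 window had a copy number of 39, so its position is uncertain. Purine or pyrimidine runs of 20 bases or more were found in 82 Zfp759 windows (10.0%), against 8.49% of the windows of the 30 samples and 5.59% along the genome. Of the 35 windows called in 4 or more other samples 8 held such a run (22.9%, interval 12.1 to 39.0), and of the 469 called in none 41 did (8.74%, interval 6.51 to 11.6). Among the 82 peaks with the most tags the count was 3.

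The peaks were distributed over gene classes much as in the other samples. Intergenic summits numbered 451 (55.3%, interval 51.8 to 58.6) and intronic ones 335 (41.1%, interval 37.7 to 44.5), where 58.8% and 37.7% of the assembled genome fell into these classes. Coding exons held 12 summits, untranslated regions 13 and other exons 5. The medians over the 29 other samples were 53.7% intergenic and 41.5% intronic, next to the Zfp759 values.

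Near transcript starts the share was ordinary for these samples. Within 1 kb of a start lay 52 summits (6.37%, interval 4.89 to 8.26), against 7.84% over the 30 samples and 4.15% of the genome. Within 5 kb lay 204 (25%, interval 22.2 to 28.1), against 16.5% of the genome and a median of 24.4% over the 29 others. The difference from the mean of the others, 10.4%, was within their spread (exact permutation p = 0.633, adjusted p = 1). The highest fold among the 52 belonged to the Anp32e intron, 494 bp from the start, followed by the Wdfy3 site, 369 bp from the start of WI1-1377A22.2 (fold 55.6), which are members of the families of 41 and of 63. The next was the start of Ino80d, a subunit gene of the INO80 chromatin remodeller, with a summit at 34 bp, a fold of 33.7, 68 tags and a GC content of 80.5%. A summit 60 bp from the start of Gtf3c5, which encodes a subunit of the RNA polymerase III factor TFIIIC, had a fold of 29.5. Mbtps2, a membrane protease gene, Nudt1, an enzyme gene for oxidized nucleotides, and Supv3l1, a mitochondrial RNA helicase gene, had folds of 27.6, 25.6 and 24.8 at 556, 82 and 249 bp. The remaining 3 of the first 10 lay at the predicted genes Gm12531, Gm15427 and AC155261.1, with folds of 28.3, 26.9 and 25.7. Of the 10, the Ino80d and Gtf3c5 windows were called in 1 other sample each and the Nudt1 window in 2.

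Zinc finger genes were not a prominent class of targets. Inside or within 10 kb of 465 of them lay 13 Zfp759 peaks (1.59%, interval 0.933 to 2.71), against 1.51% over the 30 samples. The strongest was the Slc12a8 site, which lies within 10 kb of Zfp148. It was followed by an intronic peak in Zfp704 (fold 37.3, 167 tags), in the family of 78, and by one at Zfp385b (fold 23.8, 79 tags). The Zfp704 window had a copy number of 17, so its position is uncertain. The other 10 had 36 to 67 tags. The Zfp759 gene itself (ENSMUSG00000057396.5, chr13:67229162-67242723, plus strand) had no Zfp759 peak within 10 kb, and no peak of the other 29 samples either.

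Genes of the silencing machinery and of pluripotency were each represented by a single weak peak. Among 22 annotated genes of the KAP1 machinery, 1 peak (0.123%) lay within 10 kb of a gene, against 0.102% over the 30 samples. It was a window near Trim28 and Zbtb45 with 38 tags, a fold of 24.3 and a copy number of 51, so its position is uncertain. Among 25 annotated pluripotency genes the count was also 1 peak (0.123%), against 0.134%, in an intron of Tdgf1, a co-receptor gene for Nodal, with 49 tags and a fold of 25.7. That window was called in 1 other sample.

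High-copy sequence made up a small share of the peaks. A copy number of 10 or more was found for 47 windows (5.76%), against 8.93% over the 30 samples and 13.2% along the genome. Among the 29 others the share ran from 0 to 77.6% in Rex2 (exact permutation p = 0.8, adjusted p = 1). Copy number was 1 in 693 windows (84.9%). The 1700047I17Rik2, Srp54b and Srp54c windows had copy numbers of 17, 9 and 6, so how their tags divide between these neighbouring loci on chromosome 12 is uncertain.

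Few peaks were close to one another. A second Zfp759 summit lay within 10 kb of 22 peaks (2.70%), which formed 11 pairs, against 3.19% over the 30 samples. In 6 of the pairs at least 1 member was among the 82 with the most tags. Chromosome 12 held 2 of these pairs, at 1700047I17Rik2 (428 and 98 tags) and at Srp54c (110 and 70 tags), and the pair near Csnk1e on chromosome 15 had 193 and 188 tags at 721 bp from each other. By chromosome, shares ranged from 0 on Y to 8.82% on chromosome 2. Chromosome 11 held 69 peaks (8.46%, interval 6.74 to 10.6) with 4.64% of the genome length and 6.07% of the peaks of the other samples, and chromosome 6 held 26 (3.19%, interval 2.18 to 4.63), against 5.72% and 4.67%.

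Against the 29 other samples, Zfp759 had many peaks, and its median fold ranked in the middle of samples called at different limits. Its 816 peaks ranked above those of 24 others, between Zfp599 with 697 and Zfp661 with 1065, in a range from 67 in Rex2 to 1812 in Zfp457. Its median fold of 22.7 lay between Zfp872 with 22.4 and Gm13145 with 22.7, in a range from 11.9 in Zfp457 to 55.4 in AW146154. The low end of that range holds samples called at a looser fold limit, as Zfp457 was. Beside the 18 others called at its own limits, Zfp759 had a lower median fold than their mean (log10 difference -0.112, exact permutation p = 0.368). Its median called width of 296.5 bp lay between Gm13145 with 279.5 and Zfp58 with 310.5, while Zfp808 reached 1263 bp. Its median GC content of 47.5% compared with 35.0% in Zfp808 and 55.0% in Zfp429 at the extremes. The exact permutation p values for these 4 measures were 0.267, 0.9, 1 and 0.8, and 0.833 for the clustered share, each 1 after adjustment. With 30 samples of 1 each, p cannot fall below 0.0333, and a single measure at that value is adjusted to 0.3, and none of the 9 passed 0.05 after adjustment. Zfp759 was the most extreme sample for the word alone, a rank that the choice of the word on its own peaks favours, since no word was chosen for the other samples. Samples differ in protein, transgene level and calling limits at once, and these cannot be told apart.

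**Figure D5:**
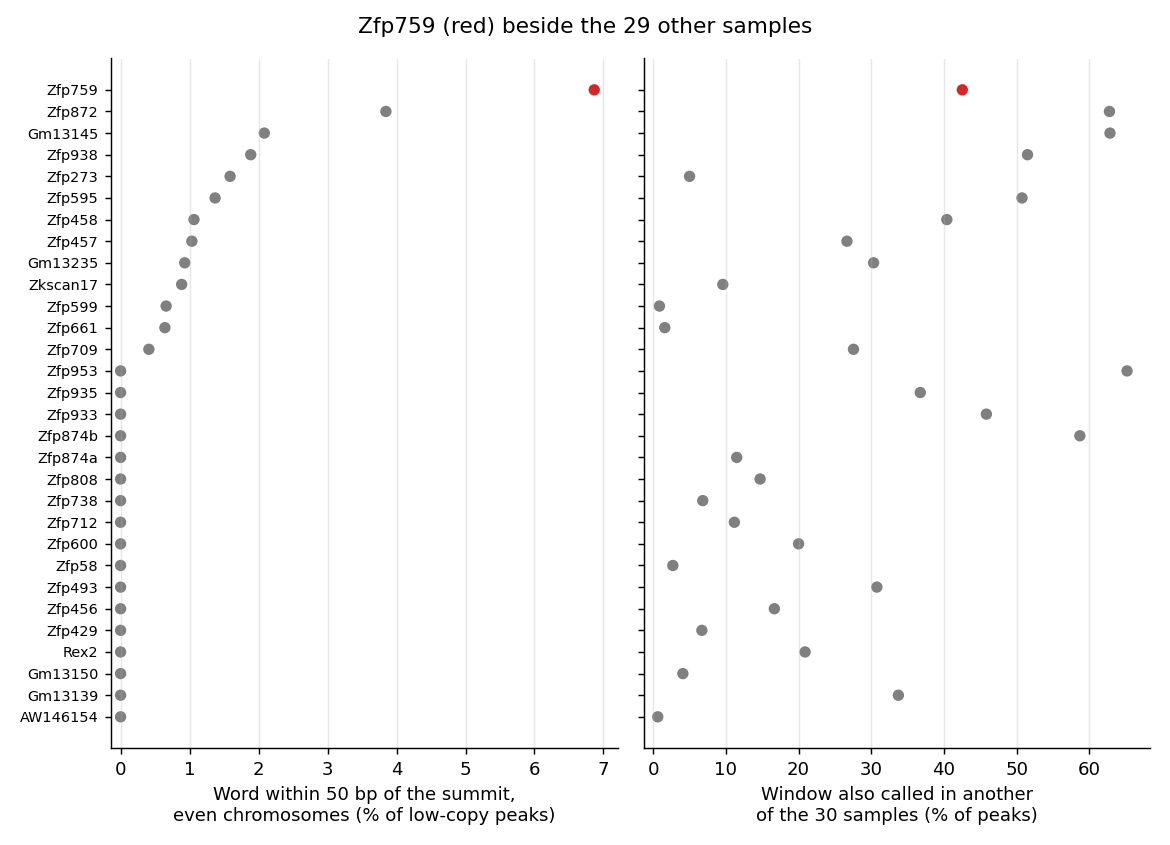
Each row is 1 of the 30 F9 samples with the HA control, with Zfp759 in red. The left panel gives the percent of low-copy peaks on even chromosomes with the 8-base word within 50 bp of the summit, where Zfp759 has 6.87% and the next sample 3.85%, and the right panel the percent of peaks shared with another of the 30, where Zfp759 has 42.5% and 7 samples lie higher.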

How the data were processed

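The authors trimmed the reads and aligned them to mm9 with Bowtie or Bowtie2. A read with several matches went to the best one, with a random choice only among equally good matches. Peaks were called with MACS (version 1.4.2 in the submitters' processing notes). The deposited table gives, for each peak, tag counts, a score on a log10 scale of p, a fold ratio over control and a false discovery rate in percent, with no library depth. Rows were assigned to samples by protein name; 244 rows under a name that matches no label were not used, and Zfp94, labelled with the same control, was not analysed here. The values of the authors' columns were used as deposited, with no filter beyond theirs. Windows were read from NCBIM37, which is mm9, and placed on GENCODE vM1 genes. Copy number came from exact 24-base matches, families from blastn (version 2.17.0) with single linkage at 100 bp, and word counts, overlaps and exact permutations from Python. The word choice, overlap and permutation code was tested on simulated data. Named peaks were the 10 with the highest fold, the 10 with the most tags, the 5 called in the most other samples (1 of which is not reported here), the 10 of highest fold within 1 kb of a start and all at the silencing and pluripotency lists. Measures were compared as log10 for peak number, fold and width. Members, lists and tests were chosen with earlier results of these data known.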

Additional observations from a re-analysis of the deposited data

How the results depend on the processing

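Of 76 alternatives, 66 left the result on the same side. The direction turned for 2 measures that did not pass a test. For the median fold (log10, Zfp759 minus the mean of the others) the difference was -0.0803 with p under 1e-10 and a fold over 20 for all samples, -0.112 with only the samples labelled with those limits, and -0.028 with a false discovery rate of 5% or less. For the clustered share it was -0.807 percentage points with the same limits for all samples and -0.147 with the false discovery rate limit. With the same limits the overlap fell to 0.49% of Zfp759 peaks for Gm13235 and to 0.123% each for Zfp457 and Zfp709, because few of their own peaks were left. The largest sequence family held 34.4% of the peaks with alignments of 50 bp, and 7.72% with low-complexity masking, which was chosen after seeing the data. None of the 54 alternatives for the 9 tested measures had an adjusted p under 0.05. No paired analysis was possible because each protein has 1 sample. Depth is unknown, and peaks under a fold of 20 are not in the table for Zfp759, so weaker binding cannot be seen.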

Other observations

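The false discovery rate in the table was above 5% for 17 Zfp759 peaks, and all 17 were among the 82 peaks with the most tags, with a highest value of 16.7%. A limit of 5% on that rate therefore removes only strong peaks of this sample.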
